A study of Mus musculus with 12 samples.

Results

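The unfolded protein response (UPR) and endoplasmic reticulum (ER) folding genes were followed as a set of 32 genes, chosen by symbol, among 55401 genes measured in migratory dendritic cells (DCs) sorted from liver, pancreas and duodenum. The libraries came from B6 mice of 6 to 8 weeks, with 4 libraries per tissue (12 in all) and 2 mice pooled in each. All 3 groups were sorted with the same gate, that of conventional type 1 DCs (cDC1): CD103+ CD11b- cells among the CD11c+ MHCII-high fraction, after dead, CD45- and lineage-marked cells had been gated out. No treatment or allele was named for any group. All 32 symbols were found. Ddit3 had a further gene identifier listed at 0 in every library, which was not used. All 32 genes passed the filter on low counts, as did 44624 genes of the series.

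The ER folds secreted and membrane proteins with the help of chaperones, disulfide isomerases and sugar-binding proteins. When unfolded proteins build up, 3 membrane sensors respond. IRE1 removes a short intron from Xbp1 mRNA and so yields the active factor XBP1. PERK slows translation and favours the factor ATF4, and ATF6 is cut in the Golgi to release a transcription factor. In mice, cDC1 are known for steady activity of the IRE1-XBP1 arm. Values per gene do not separate spliced from unspliced Xbp1, so the activity of IRE1 was not measured here.

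The ER stress response element (ERSE), bound by ATF6 and XBP1 together with NF-Y, marks many promoters of this response, and its sequences are shown because it is the regulatory sequence the set is known for. Promoter windows of 300 bases, from 250 before to 50 after the start, were taken from RefSeq (build GRCm38.p6) and matched by symbol for 27 of the 32 genes. Derl1, Ssr2, Atf6, Hyou1 and Manf had no entry. On either strand, ERSE, CCAAT and CCACG with 9 bases between them, was found in 7 of the 27 genes, or 25.9%, against 37 of 27025 genes, or 0.137%. The related ERSE-II, ATTGG and CCACG with 1 base between them, was found in 2 more, or 7.41%, against 0.0444% of all genes, and no gene of the set held both. The windows around the 10 matches in these 9 genes are given 5′ to 3′ along the gene, with the fixed bases of the element in capitals.
Hspa5 (chr2:34772019-34772049, + strand): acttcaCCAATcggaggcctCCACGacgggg
Syvn1 (chr19:6046526-6046556, + strand): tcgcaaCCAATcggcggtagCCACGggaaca
Pdia6 (chr12:17266485-17266515, + strand): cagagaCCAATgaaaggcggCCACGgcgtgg
Dnajc3 (chr14:118937821-118937851, + strand): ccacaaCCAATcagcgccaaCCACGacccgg
Hsp90b1, upstream match (chr10:86705632-86705662, - strand): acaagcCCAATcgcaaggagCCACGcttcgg
Hsp90b1, downstream match (chr10:86705527-86705557, - strand): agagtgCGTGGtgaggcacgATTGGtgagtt
Creld2 (chr15:88819514-88819544, + strand): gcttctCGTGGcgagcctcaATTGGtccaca
Derl3 (chr10:75893236-75893266, + strand): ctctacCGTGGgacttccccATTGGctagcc
Herpud1, ERSE-II (chr8:94386371-94386393, + strand): gcgctgATTGGgCCACGttggac
Dnajb11, ERSE-II (chr16:22857846-22857868, + strand): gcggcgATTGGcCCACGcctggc
Creld2, Derl3 and the downstream match of Hsp90b1 held the element on the opposite strand. The first bases of these matches lay between 44 and 212 bases before the start, apart from Dnajb11, where the match lay after it. The whole windows of Hspa5 and Herpud1, the most abundant chaperone of the set and its most abundant gene in duodenum, give the element its longer context.
Hspa5 promoter (chr2:34771840-34772139, + strand): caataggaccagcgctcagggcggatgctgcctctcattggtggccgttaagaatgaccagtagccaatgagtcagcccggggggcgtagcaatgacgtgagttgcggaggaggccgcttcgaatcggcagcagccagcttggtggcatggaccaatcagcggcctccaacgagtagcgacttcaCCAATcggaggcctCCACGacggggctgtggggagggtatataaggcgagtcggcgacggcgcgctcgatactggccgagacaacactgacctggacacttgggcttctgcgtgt
Herpud1 promoter (chr8:94386179-94386478, + strand): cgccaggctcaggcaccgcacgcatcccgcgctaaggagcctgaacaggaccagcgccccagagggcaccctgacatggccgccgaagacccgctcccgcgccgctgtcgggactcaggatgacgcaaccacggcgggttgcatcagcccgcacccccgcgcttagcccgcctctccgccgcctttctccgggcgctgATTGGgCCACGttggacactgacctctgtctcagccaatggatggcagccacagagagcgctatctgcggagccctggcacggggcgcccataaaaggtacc
The UPR element core (TGACGTGG) and the C/EBP-ATF response element (TGATGNAAT), through which XBP1 and ATF4 can act, matched 0 of the 27 genes on either strand and 0.714% and 1.08% of all genes. These matches describe letters in a window and do not show binding.

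The genes of this response were mostly lower in DCs of liver and pancreas than in those of duodenum. Against duodenum, 20 of 32 genes were lower in liver, or 62.5%, at an adjusted p under 0.05 in the edgeR quasi-likelihood test, where 3.95% of all genes tested were lower, 3.37% higher and 7.32% called in all. In pancreas 22 of 32 were lower, or 68.8%, against 3.94% of all genes lower, 3.76% higher and 7.7% in all. Overlap was read from TPM as deposited, without the scaling used in the test. Libraries of liver and duodenum did not overlap for 16 of the 32 genes, against 15.6% of all genes. Those of pancreas and duodenum did not overlap for 23, against 13.6%. Both counts include Atf6, whose TPM were higher in liver and pancreas than in duodenum. With the scaling of the test, some of these genes came to overlap. Among them were Atf6 in both tissues, Manf in liver, and Derl1, Derl2 and Ssr2 in pancreas. Among genes with a mean of at least 1 TPM (a level scaled for gene length and library size, used for all levels here), which all 32 reach, 9.29% were lower in liver and 9.13% in pancreas, each against duodenum. No member was higher by this test in either tissue than in duodenum (0 of 32 each, with 1 each at an unadjusted p under 0.05, the sensor gene Atf6, and 0 each by DESeq2). The median log2 difference of the members was -0.62 in liver and -0.84 in pancreas against duodenum. Over all genes tested the medians were 0.10 and 0.09, and over genes with a mean of at least 1 TPM they were 0.003 and 0.019. Both comparisons share the duodenum libraries.

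**Figure D1:**
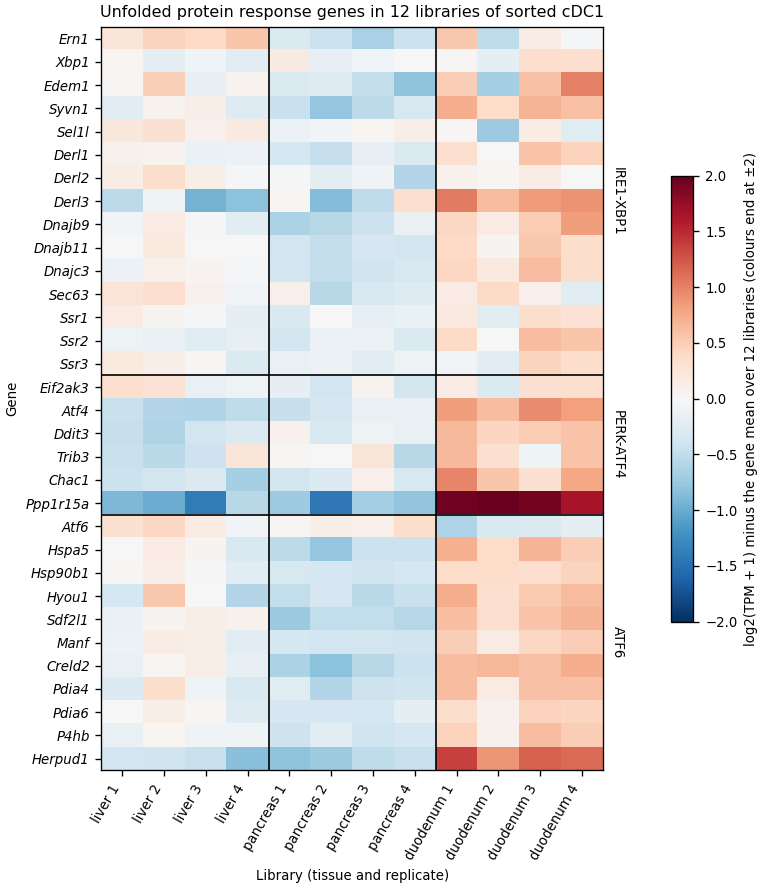
Levels of the 32 genes in the 12 libraries, as log2(TPM + 1) minus the mean of each gene over all libraries. Columns are libraries of liver, pancreas and duodenum, and rows are genes grouped by arm. Most rows are red in the 4 duodenum columns, with Ppp1r15a, Herpud1 and Derl3 among the strongest, while Atf6 runs the other way.

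Summed over the 32 genes, levels were 2474, 2698, 2512 and 2196 TPM in liver libraries, 1942, 1916, 2047 and 2066 TPM in pancreas libraries, and 4346, 3475, 4311 and 4194 TPM in duodenum libraries. The duodenum libraries did not overlap with the others, and duodenum 2 was the lowest of them. That library was the lowest of its tissue for 24 of the 32 genes, and liver 4 was so for 17. Without duodenum 2, 25 genes were lower in liver and 27 in pancreas.

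Transcripts of other cell types and of immediate-early and heat-shock responses also differed between the tissues. Cell handling itself was not measured. Markers of plasma cells, antibody-secreting cells with a very large ER, summed to 98.8 to 1438 TPM in liver, 105 to 1703 TPM in pancreas and 10940 to 16300 TPM in duodenum over 12 genes. Of these, 7 were lower in liver and 6 in pancreas against duodenum. The IgA heavy chain gene Igha was at 0.0535 to 0.204 TPM in liver, 0.314 to 3.57 TPM in pancreas and 3207 to 5155 TPM in duodenum. Jchain, which joins IgA molecules, was at 0.455 to 48.6 TPM in liver, 0.494 to 89.8 TPM in pancreas and 657 to 1141 TPM in duodenum, Igkc at 0.112 to 1277 TPM in liver, 0.457 to 1358 TPM in pancreas and 5335 to 8895 TPM in duodenum, and Mzb1, an ER protein of plasma cells, at 0.181 to 3.91 TPM in liver, 0.364 to 2.02 TPM in pancreas and 9.15 to 17.1 TPM in duodenum. Igha and Mzb1 were lower in liver and pancreas, whereas Jchain and Igkc did not pass the test in either (adjusted p = 0.137 and 0.48 in liver, 0.259 and 0.606 in pancreas). Ighm, the IgM heavy chain gene, was at 91.9 to 102 TPM in liver, 94.6 to 239 TPM in pancreas and 87.6 to 120.4 TPM in duodenum and made up most of the sum in liver 1, 3 and 4 and pancreas 1 and 2. Fkbp11, an ER isomerase of secretory cells, was at 2.37 to 3.37 TPM in liver, 3.06 to 6.9 TPM in pancreas and 1.41 to 6.48 TPM in duodenum, and neither gene passed the test. Genes of the immediate-early and heat-shock responses, which stimulation and cell handling induce, summed to 374 to 441 TPM in liver, 380 to 709 TPM in pancreas and 2178 to 3052 TPM in duodenum over 12 genes. Of these, 11 were lower in liver and 9 in pancreas. The 9 were immediate-early genes, and the heat-shock genes Hspa1a, Hspa1b and Dnajb1 did not pass the test in pancreas (adjusted p = 0.188, 0.805 and 0.411). Markers of acinar cells, which secrete the enzymes of the pancreas, summed to 6.12 to 8.38 TPM in liver, 1016 to 5997 TPM in pancreas and 4.23 to 15.5 TPM in duodenum over 14 genes. All 14 were higher in pancreas than in duodenum, and 0 were called in liver against duodenum (2 lower at an unadjusted p under 0.05 and 2 by DESeq2). The carboxypeptidase gene Cpa1 was at 0.0491 to 0.303 TPM in liver, 62.6 to 365 TPM in pancreas and 0.19 to 0.406 TPM in duodenum, and the trypsinogen gene Prss2 at 0.0488 to 0.318 TPM in liver, 129 to 962 TPM in pancreas and 0.144 to 2.62 TPM in duodenum. The elastase gene Cela1 was at 0.518 to 1.14 TPM in liver, 80.9 to 528 TPM in pancreas and 0.324 to 3.1 TPM in duodenum, and the lipase gene Pnlip at 0.192 to 0.346 TPM in liver, 45.4 to 391 TPM in pancreas and 0.141 to 0.668 TPM in duodenum.

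The part of these transcripts in the differences was not tested. Liver 2 had 1438 TPM of plasma cell markers, the other liver libraries had at most 109.7 TPM, and liver 2 was the highest of its tissue for 16 of the 32 genes. Without liver 2, pancreas 3 and pancreas 4, the libraries of these tissues with over 1000 TPM of plasma cell markers, 14 genes were lower in liver and 20 in pancreas against duodenum. The plasma cell sums were 11140, 14400, 10940 and 16300 TPM in duodenum 1 to 4, where the member sums were 4346, 3475, 4311 and 4194 TPM. In pancreas 1 to 4 the plasma cell sums were 104.8, 104.9, 1479 and 1703 TPM, the acinar sums 5997, 1016, 2832 and 3016 TPM, and the member sums 1942, 1916, 2047 and 2066 TPM. The cDC1 markers Xcr1, Clec9a, Irf8, Batf3, Itgae and Itgax were present in every library, summing to 1272 to 1404 TPM in liver, 1068 to 1199 TPM in pancreas and 1123 to 1491 TPM in duodenum. Of these, Itgae, which encodes the sorted CD103, was lower in both liver and pancreas against duodenum, and Itgax, which encodes CD11c, in pancreas. In bulk libraries, fewer cells of a type and less RNA per cell cannot be told apart. Replicates are libraries, so p-values measure the spread between libraries of 2 pooled mice. Library totals ran from 220.9 to 356.1, in units of 1000000 estimated counts.

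**Figure D2:**
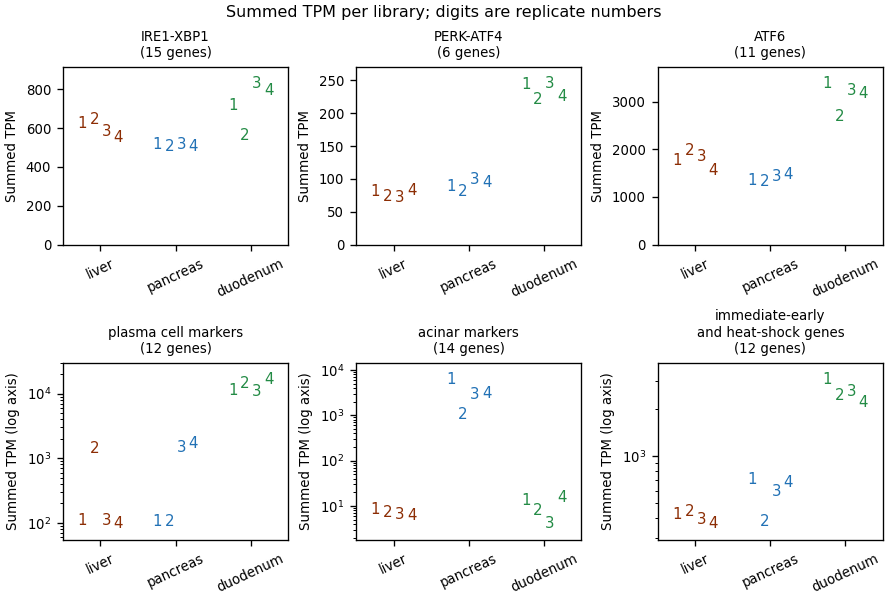
Summed TPM per library for the 3 arms (upper row, linear axes from 0) and for markers of plasma cells, of acinar cells and of immediate-early and heat-shock responses (lower row, log axes). Digits are replicate numbers. PERK-ATF4 and ATF6 sums of the duodenum libraries lie above all others, as do their plasma cell and immediate-early sums, and the IRE1-XBP1 sum of duodenum 2 lies among the liver libraries.

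The ATF6 arm, with the lumenal chaperones that ATF6 and XBP1 jointly induce, was lower nearly throughout. Of its 11 genes, 10 were lower in liver and 10 in pancreas against duodenum, and the exception in both was Atf6 itself. The median log2 difference was -0.68 in liver and -0.998 in pancreas. Summed levels were 1770, 1978, 1860 and 1563 TPM in liver, 1338, 1329, 1430 and 1469 TPM in pancreas, and 3387, 2691, 3235 and 3176 TPM in duodenum libraries. Within these sums and those of all members, Herpud1 alone had means of 333 TPM in liver, 309 TPM in pancreas and 1053 TPM in duodenum.

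Hspa5 encodes BiP, the ER chaperone that also holds the 3 sensors inactive. It was at 409, 457, 422 and 328 TPM in liver, 284, 237, 303 and 304 TPM in pancreas, and 665, 526, 650.3 and 575 TPM in duodenum libraries. Its log2 difference against duodenum was -0.74 ± 0.15 (SE, adjusted p = 0.00594) in liver and -1.17 ± 0.15 (SE, adjusted p = 0.000154) in pancreas, and neither tissue overlapped with duodenum. Hsp90b1, the ER member of the HSP90 family (GRP94), was at 212, 229.5, 204 and 179 TPM in liver, 168, 164, 159 and 163 TPM in pancreas, and 271, 271, 263 and 286 TPM in duodenum libraries. It differed by -0.57 ± 0.11 (SE, adjusted p = 0.0043) in liver and -0.81 ± 0.11 (SE, adjusted p = 0.000232) in pancreas, again with no overlap. Hyou1 encodes a large chaperone that recharges BiP with nucleotide, and was at 16.8, 31.8, 21.8 and 14.1 TPM in liver, 15.2, 16.8, 14.5 and 15.7 TPM in pancreas, and 36.4, 27.1, 31.5 and 33.98 TPM in duodenum libraries. Liver 2 reached the duodenum range for Hyou1, the other liver and all pancreas libraries lay below it, and the differences were -0.78 ± 0.22 (SE, adjusted p = 0.0418) in liver and -1.13 ± 0.22 (SE, adjusted p = 0.00431) in pancreas. The call in liver ended when any 1 of liver 1, 3 or 4, duodenum 1, 3 or 4, or pancreas 2 was left out (adjusted p up to 0.115).

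Sdf2l1, Manf and Creld2 encode small ER proteins that the response induces strongly. Sdf2l1, a partner of the co-chaperone ERdj3, was at 217, 246, 257 and 253 TPM in liver, 142, 168, 168 and 159 TPM in pancreas, and 361, 300.5, 353 and 379 TPM in duodenum libraries. Creld2, which has disulfide isomerase activity, was at 73.04, 83.9, 88.2 and 72.97 TPM in liver, 52.2, 45.9, 55.4 and 60.4 TPM in pancreas, and 125, 130.0, 122 and 135 TPM in duodenum libraries. For both genes the 3 tissues formed separate ranges, with pancreas lowest and duodenum highest. Sdf2l1 differed from duodenum by -0.68 ± 0.14 (SE, adjusted p = 0.00915) in liver and -1.20 ± 0.15 (SE, adjusted p = 0.000106) in pancreas. Creld2 differed by -0.85 ± 0.14 (SE, adjusted p = 0.00148) in liver and -1.33 ± 0.14 (SE, adjusted p = 2.53e-05) in pancreas. Manf, a secreted factor that binds BiP, was at 107, 129, 126 and 99.7 TPM in liver, 90.8, 88.5, 89.2 and 87.6 TPM in pancreas, and 164, 129.6, 155 and 163 TPM in duodenum libraries. In deposited TPM, duodenum 2 lay just above the highest liver library. Manf differed by -0.57 ± 0.14 (SE, adjusted p = 0.0269) in liver and -0.86 ± 0.15 (SE, adjusted p = 0.00179) in pancreas, and the call in liver ended without liver 1 or 4 or without duodenum 1, 3 or 4 (adjusted p up to 0.0834).

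The disulfide isomerases, which form and reshuffle the disulfide bonds of folding proteins, moved in the same direction. P4hb, the classical protein disulfide isomerase, was at 164, 187, 173 and 171 TPM in liver, 136, 155, 138 and 144 TPM in pancreas, and 252, 192, 279 and 256 TPM in duodenum libraries. Pdia4 was at 62.1, 96.3, 70.1 and 60.4 TPM in liver, 63.3, 49.4, 55.96 and 56.6 TPM in pancreas, and 116, 83.9, 112 and 113 TPM in duodenum libraries. Pdia6 was at 138, 148, 138 and 114 TPM in liver, 108, 107, 106 and 121 TPM in pancreas, and 174, 145, 187 and 184 TPM in duodenum libraries. All pancreas libraries lay below all duodenum libraries for these 3 genes, and in liver only P4hb was free of overlap, since liver 2 exceeded duodenum 2 for Pdia4 and Pdia6. P4hb differed by -0.66 ± 0.14 (SE, adjusted p = 0.00913) in liver and -0.85 ± 0.14 (SE, adjusted p = 0.00148) in pancreas. Pdia4 differed by -0.73 ± 0.17 (SE, adjusted p = 0.017) in liver and -0.998 ± 0.17 (SE, adjusted p = 0.00189) in pancreas. Pdia6 differed by -0.52 ± 0.14 (SE, adjusted p = 0.0307) in liver and -0.72 ± 0.14 (SE, adjusted p = 0.00411) in pancreas. In liver the call of Pdia4 ended without duodenum 1 or 4 (adjusted p up to 0.0558), and that of Pdia6 without liver 1 or 4 or duodenum 1, 3 or 4 (adjusted p up to 0.0925).

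Herpud1, a membrane protein that gathers the HRD1 ubiquitin ligase complex for ER-associated degradation (ERAD), was the most abundant gene of the set in duodenum. It was at 361, 357, 349 and 263 TPM in liver, 269, 288, 331 and 347 TPM in pancreas, and 1219, 878, 1074 and 1042 TPM in duodenum libraries. The log2 differences against duodenum were -1.83 ± 0.17 (SE, adjusted p = 1.22e-05) in liver and -1.84 ± 0.17 (SE, adjusted p = 7.07e-06) in pancreas, and the lowest duodenum library was above every other library. Atf6, the sensor, was at 11.2, 12.2, 10.1 and 8.5 TPM in liver, 9.1, 9.7, 9.6 and 11.6 TPM in pancreas, and 5.47, 6.97, 7.17 and 7.6 TPM in duodenum libraries. In deposited TPM every liver and pancreas library lay above every duodenum library. With TPM scaled by the TMM factors of the test they overlapped, as liver 4 was at 7.71, pancreas 1 at 8.08 and duodenum 4 at 8.57. The differences of 0.46 ± 0.16 (SE, adjusted p = 0.102) in liver and 0.49 ± 0.16 (SE, adjusted p = 0.0845) in pancreas did not pass the test. Of 23 alternatives, 4 called Atf6 higher in liver and 4 in pancreas, namely the fit scaled by library totals and the 3 fits of limma to TPM.

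**Figure D3:**
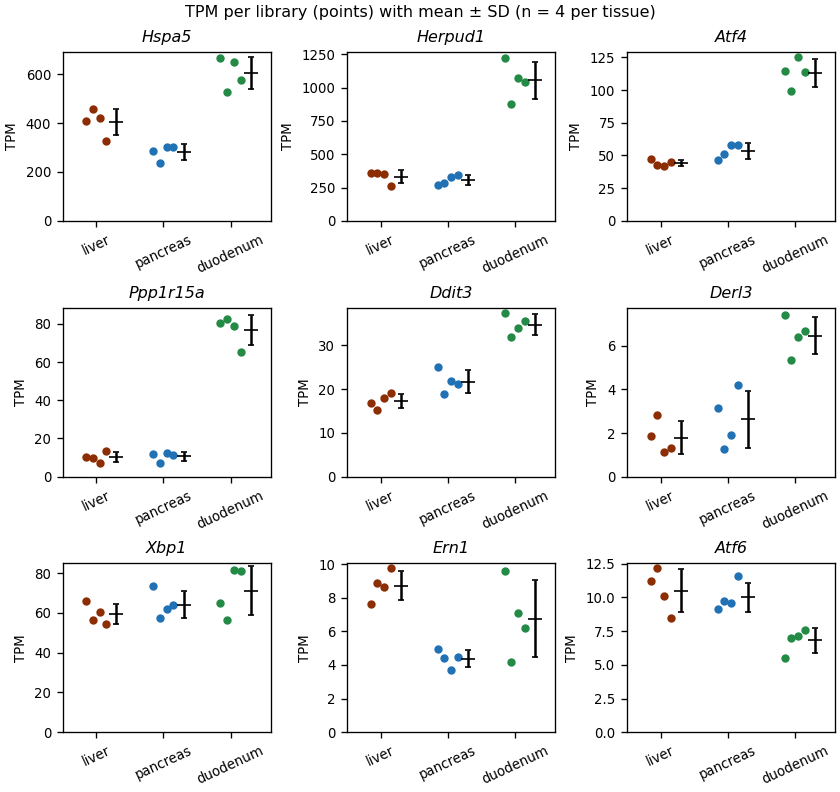
TPM per library for 9 genes, with libraries of liver, pancreas and duodenum as points and the mean ± SD of 4 libraries beside them; axes start at 0. Hspa5, Herpud1, Atf4, Ppp1r15a, Ddit3 and Derl3 are highest in all 4 duodenum libraries, Xbp1 overlaps between the tissues, Ern1 is higher in liver than in pancreas, and Atf6 is lowest in duodenum.

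In the PERK-ATF4 arm, 4 of 6 genes were lower in liver and 4 in pancreas against duodenum, namely Atf4, Ddit3, Chac1 and Ppp1r15a in each comparison. The arm's median log2 difference was -1.46 in liver and -0.99 in pancreas, and its summed levels were 80.8, 73.9, 71.99 and 83.1 TPM in liver, 88.5, 81.5, 99.4 and 94.7 TPM in pancreas, and 243, 220.3, 246 and 225 TPM in duodenum libraries. Eif2ak3, which encodes PERK, was at 5.36, 5.22, 3.61 and 3.74 TPM in liver, 3.46, 2.9, 4.32 and 2.94 TPM in pancreas, and 4.65, 3.14, 5.28 and 5.43 TPM in duodenum libraries. The tissues overlapped, and Eif2ak3 differed from duodenum by -0.23 ± 0.23 (SE, adjusted p = 0.694) in liver and -0.52 ± 0.23 (SE, adjusted p = 0.238) in pancreas. Atf4, the transcription factor of the arm, was at 47.04, 42.7, 41.98 and 45.01 TPM in liver, 46.4, 50.9, 58.1 and 58.2 TPM in pancreas, and 115, 98.99, 125 and 114 TPM in duodenum libraries. It differed by -1.52 ± 0.15 (SE, adjusted p = 1.83e-05) in liver and -1.15 ± 0.14 (SE, adjusted p = 0.00014) in pancreas, without overlap.

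Ppp1r15a encodes GADD34, the phosphatase subunit that reverses the translation block, and showed the widest difference of the set. It was at 10.3, 9.62, 7.06 and 13.4 TPM in liver, 11.8, 6.89, 12.3 and 11.3 TPM in pancreas, and 80.7, 82.4, 78.7 and 65.2 TPM in duodenum libraries. Its log2 difference was -3.09 ± 0.21 (SE, adjusted p = 8.16e-07) in liver, an 8.54-fold lower level, and -2.93 ± 0.21 (SE, adjusted p = 7.69e-07) in pancreas, 7.60-fold lower. Ddit3, which encodes the factor CHOP, was at 16.9, 15.2, 18.0 and 19.1 TPM in liver, 25.1, 18.9, 21.9 and 21.1 TPM in pancreas, and 37.5, 31.9, 33.97 and 35.6 TPM in duodenum libraries. It differed by -1.17 ± 0.15 (SE, adjusted p = 0.000169) in liver and -0.76 ± 0.14 (SE, adjusted p = 0.00431) in pancreas, and no liver or pancreas library reached the duodenum range for either gene. Beside them, the immediate-early genes were highest in duodenum, as given above, and their part in these levels was not tested.

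Chac1 and Trib3, which ATF4 and CHOP induce, were rare. Chac1, a glutathione-degrading enzyme, was at 0.641, 0.705, 0.804 and 0.402 TPM in liver, 0.715, 0.826, 1.38 and 0.767 TPM in pancreas, and 3.35, 2.26, 1.72 and 2.79 TPM in duodenum libraries. It differed by -2.14 ± 0.33 (SE, adjusted p = 0.000945) in liver and -1.50 ± 0.32 (SE, adjusted p = 0.00905) in pancreas, with the duodenum libraries above all others. Trib3, a pseudokinase, was at 0.515, 0.419, 0.544 and 1.45 TPM in liver, 1.1, 1.05, 1.45 and 0.403 TPM in pancreas, and 2.22, 1.59, 0.939 and 2.07 TPM in duodenum libraries. Its libraries overlapped, and its differences of -1.39 ± 0.45 (SE, adjusted p = 0.0827) in liver and -0.83 ± 0.45 (SE, adjusted p = 0.354) in pancreas did not pass the test.

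In the IRE1-XBP1 arm, 6 of 15 genes were lower in liver and 8 in pancreas against duodenum, with a median log2 difference of -0.47 in liver and -0.72 in pancreas. Summed levels were 623, 646, 580.0 and 549.8 TPM in liver, 516, 506, 518 and 503 TPM in pancreas, and 716, 564, 830.3 and 793 TPM in duodenum libraries. The sensor and the factor of the arm did not pass the test. Ern1, which encodes IRE1, was at 7.61, 8.9, 8.65 and 9.74 TPM in liver, 4.96, 4.43, 3.68 and 4.45 TPM in pancreas, and 9.61, 4.16, 7.08 and 6.19 TPM in duodenum libraries. It differed from duodenum by 0.20 ± 0.22 (SE, adjusted p = 0.735) in liver and -0.72 ± 0.22 (SE, adjusted p = 0.066) in pancreas. Xbp1 was at 66.1, 56.2, 60.6 and 54.5 TPM in liver, 73.4, 57.5, 61.8 and 64.1 TPM in pancreas, and 65.2, 56.5, 81.4 and 81.3 TPM in duodenum libraries. It differed by -0.43 ± 0.15 (SE, adjusted p = 0.114) in liver and -0.23 ± 0.15 (SE, adjusted p = 0.47) in pancreas. Both genes overlapped between duodenum and each of the other tissues. With duodenum 2 left out, Xbp1 was called lower against duodenum in liver (adjusted p = 0.00411) and pancreas (adjusted p = 0.0374), and Ern1 lower in pancreas (adjusted p = 0.00157).

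Genes of ERAD, which removes misfolded proteins from the ER, were lower for 3 of 6 members in liver and 4 in pancreas. Syvn1, the ubiquitin ligase HRD1, was at 4.96, 6.34, 6.66 and 4.83 TPM in liver, 4.16, 3.09, 3.86 and 4.61 TPM in pancreas, and 10.6, 8.01, 10.2 and 9.55 TPM in duodenum libraries. Derl1, a membrane protein of the export channel, was at 41.9, 41.7, 35.9 and 36.4 TPM in liver, 30.8, 28.5, 35.02 and 32.1 TPM in pancreas, and 49.99, 39.4, 58.8 and 54.6 TPM in duodenum libraries. Derl3, its relative that is known from secretory cells such as plasma cells and acinar cells, was at 1.85, 2.83, 1.15 and 1.32 TPM in liver, 3.17, 1.26, 1.89 and 4.19 TPM in pancreas, and 7.44, 5.37, 6.39 and 6.71 TPM in duodenum libraries. For Syvn1 and Derl3 the duodenum libraries were above all others, and for Derl1 they overlapped with liver through duodenum 2. Syvn1 differed from duodenum by -0.91 ± 0.18 (SE, adjusted p = 0.00643) in liver and -1.37 ± 0.18 (SE, adjusted p = 0.000275) in pancreas. Derl1 differed by -0.55 ± 0.16 (SE, adjusted p = 0.0482) in liver and -0.76 ± 0.16 (SE, adjusted p = 0.0077) in pancreas, and the call in liver ended when any liver library, duodenum 1, 3 or 4, or pancreas 2 was left out (adjusted p up to 0.148). Derl3 differed by -2.04 ± 0.35 (SE, adjusted p = 0.00204) in liver and -1.40 ± 0.34 (SE, adjusted p = 0.0191) in pancreas, where the call ended without duodenum 1 or pancreas 3 (adjusted p up to 0.0563). Beside Derl3 stand the plasma cell sums of 10940 to 16300 TPM in duodenum. Derl3 at 3.17, 1.26, 1.89 and 4.19 TPM in pancreas 1 to 4 stood beside plasma cell sums of 104.8, 104.9, 1479 and 1703 TPM and the acinar sums given above. Within liver, library 2 had the most Derl3, 2.83 TPM, with 1438 TPM of plasma cell markers. The part of either cell type in Derl3 was not tested.

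Edem1 marks misfolded glycoproteins for degradation. It was at 31.04, 42.4, 27.1 and 32.1 TPM in liver, 24.7, 25.2, 21.5 and 16.9 TPM in pancreas, and 43.2, 18.8, 45.97 and 62.01 TPM in duodenum libraries. Duodenum 2 was its lowest duodenum library, within the pancreas range, and the differences were -0.55 ± 0.29 (SE, adjusted p = 0.333) in liver and -1.04 ± 0.29 (SE, adjusted p = 0.0402) in pancreas. The call in pancreas ended when any pancreas library or duodenum 1, 3 or 4 was left out (adjusted p up to 0.135). Sel1l, the HRD1 adaptor, and Derl2 did not pass the test. Sel1l had means of 19.4 ± 1.26 TPM in liver, 16.9 ± 1.32 TPM in pancreas and 14.9 ± 3.96 TPM in duodenum (SD, n = 4 each), and Derl2 of 55.1 ± 6.34 TPM in liver, 43.1 ± 7.34 TPM in pancreas and 52.1 ± 2.42 TPM in duodenum (SD, n = 4 each).

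The co-chaperones that deliver proteins to BiP were lower for 2 of 3 members in liver and for 3 of 3 in pancreas. Dnajb9, or ERdj4, which can also hold IRE1 inactive, was at 13.4, 15.7, 13.7 and 11.7 TPM in liver, 8.6, 9.16, 10.1 and 12.5 TPM in pancreas, and 18.9, 15.6, 20.1 and 25.6 TPM in duodenum libraries. Dnajc3, known also as an inhibitor of PERK, was at 19.6, 23.0, 22.1 and 20.6 TPM in liver, 16.1, 14.97, 16.0 and 16.8 TPM in pancreas, and 28.7, 24.6, 33.4 and 27.4 TPM in duodenum libraries. Dnajb11, or ERdj3, was at 91.5, 106, 92.6 and 91.9 TPM in liver, 71.8, 66.0, 72.97 and 71.7 TPM in pancreas, and 122, 95.9, 135 and 118 TPM in duodenum libraries. All 3 genes were lower in every pancreas library than in any duodenum library, and in liver only Dnajc3 was without overlap. Dnajb9 differed by -0.73 ± 0.20 (SE, adjusted p = 0.0356) in liver and -1.07 ± 0.20 (SE, adjusted p = 0.0032) in pancreas. Dnajc3 differed by -0.58 ± 0.13 (SE, adjusted p = 0.016) in liver and -0.91 ± 0.14 (SE, adjusted p = 0.000619) in pancreas. Dnajb11 differed by -0.47 ± 0.14 (SE, adjusted p = 0.0514) in liver and -0.81 ± 0.14 (SE, adjusted p = 0.00168) in pancreas. In liver the call of Dnajb9 ended without liver 1, 3 or 4 or duodenum 1, 3 or 4 (adjusted p up to 0.105), and that of Dnajc3 without duodenum 3 (adjusted p = 0.0582). Dnajb11 was called in liver when duodenum 2, pancreas 1 or pancreas 3 was left out (adjusted p down to 0.000923).

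Of the genes of protein entry into the ER, Ssr2 was lower in both tissues and the others did not pass the test. Ssr2, a subunit of the translocon-associated TRAP complex, was at 90.9, 87.5, 82.03 and 87.2 TPM in liver, 75.01, 89.6, 89.9 and 79.3 TPM in pancreas, and 128, 96.5, 149.9 and 143 TPM in duodenum libraries. It differed by -0.75 ± 0.17 (SE, adjusted p = 0.0129) in liver and -0.70 ± 0.17 (SE, adjusted p = 0.0168) in pancreas, where the call ended without duodenum 3 or 4 (adjusted p up to 0.0595), and without liver 2, pancreas 3 and pancreas 4 it ended in both. The other TRAP subunits had means of 44.5 ± 4.74 TPM in liver, 40.01 ± 3.49 TPM in pancreas and 50.4 ± 8.37 TPM in duodenum (SD, n = 4 each) for Ssr1 and 106 ± 14.8 TPM in liver, 94.5 ± 3.2 TPM in pancreas and 116 ± 25.3 TPM in duodenum (SD, n = 4 each) for Ssr3. Sec63, which recruits BiP to the translocon, had means of 9.56 ± 1.28 TPM in liver, 6.96 ± 1.55 TPM in pancreas and 9.22 ± 1.7 TPM in duodenum (SD, n = 4 each). Sec63, Ssr1 and Ssr3 each had overlapping liver and duodenum libraries and overlapping pancreas and duodenum libraries.

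**Figure D4:**
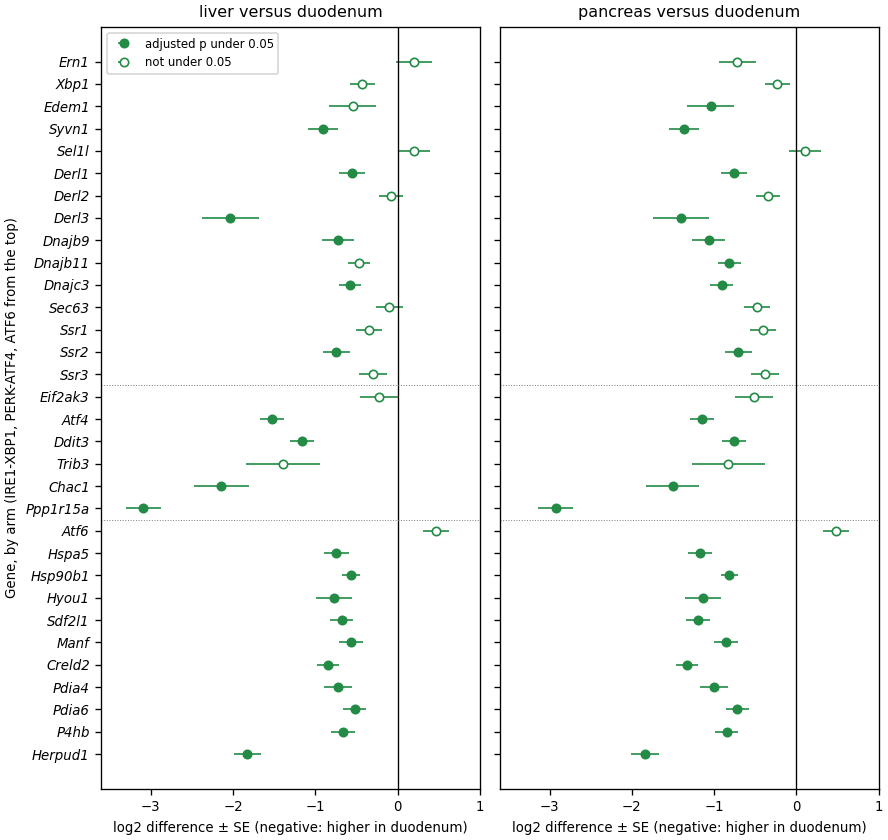
Log2 difference ± SE of each of the 32 genes, for liver versus duodenum (left) and pancreas versus duodenum (right), from the edgeR fit to 12 libraries. Genes run down the page by arm, and filled points passed an adjusted p under 0.05. Filled points all lie left of 0, with Ppp1r15a farthest at -3.09 and -2.93, and the open points include the sensor genes Ern1, Eif2ak3 and Atf6.

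The 9 genes with an ERSE or ERSE-II match in their promoter window were lower in 8 cases in liver and in 9 cases in pancreas. The exception in liver was Dnajb11. The 18 genes whose window held neither element were lower in 8 and 9 cases, and Atf4, Ddit3, Ppp1r15a and Sdf2l1 were among them. The 5 genes with no promoter entry were lower in 4 cases in each tissue. Of all genes with a mean of at least 1 TPM, 9.29% were lower in liver and 9.13% in pancreas. The promoter elements are part of how these genes came to be known as members of the response, and no test was made of these counts.

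Between liver and pancreas, no member passed the test (0 of 32 by edgeR, with 9 higher and 2 lower in liver at an unadjusted p under 0.05, and 1 by DESeq2, Ern1). Of all genes, 1.11% were called. In TPM, 12 of the 32 genes had separate ranges in the 2 tissues, against 7.33% of all genes. The median log2 difference of the members was 0.22, and 23 of 32 were positive. Over all genes the median was 0.01, and over those with a mean of at least 1 TPM it was -0.01. The shares of all genes at an unadjusted p under 0.05, or with a positive difference, were not taken. No order of the 2 tissues is read from these counts of members. Ern1 had the largest difference, 0.91 ± 0.22 (SE, adjusted p = 0.0737), with every liver library above every pancreas library. Among chaperone genes of the ATF6 arm, Sdf2l1 was at 0.52 ± 0.14 (SE, adjusted p = 0.14) and Creld2 at 0.48 ± 0.14 (SE, adjusted p = 0.146), and Hspa5 was at 0.43 ± 0.15 (SE, adjusted p = 0.296). Atf4 and Ddit3 had the opposite sign, at -0.37 ± 0.14 (SE, adjusted p = 0.382) and -0.41 ± 0.14 (SE, adjusted p = 0.311). Without duodenum 1 or without duodenum 2, Ern1 was called between liver and pancreas (adjusted p = 0.0377 and 0.00657), and so it was in a fit to the 8 libraries compared.

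Other genes of the ER folding pathway, from 8 further lists, were counted in the same test. Of all genes with a mean of at least 1 TPM, 9.29% were lower in liver and 9.13% in pancreas against duodenum. Of 10 genes for lectin chaperones and glycan trimming, 4 were lower in liver and 4 in pancreas against duodenum, and 0 were higher (0 at an unadjusted p under 0.05 and 0 by DESeq2). Leaving out 1 library gave 2 to 7 called genes in liver (2 without liver 1 or 4 or duodenum 1 or 3, 7 without duodenum 2) and 2 to 6 in pancreas (2 without pancreas 1 or 4 or duodenum 1, 3 or 4). Calr, which encodes the lectin chaperone calreticulin, was at 169.8, 204, 195 and 148 TPM in liver, 126, 141, 149.6 and 155 TPM in pancreas, and 245, 249.9, 253 and 282 TPM in duodenum libraries. It differed by -0.68 ± 0.15 (SE, adjusted p = 0.00994) in liver and -0.91 ± 0.15 (SE, adjusted p = 0.00116) in pancreas, without overlap. Canx, its membrane-bound relative, differed by -0.44 ± 0.17 (SE, adjusted p = 0.142) in liver and -0.61 ± 0.17 (SE, adjusted p = 0.0394) in pancreas. Pdia3, the isomerase that works with both, differed by -0.34 ± 0.15 (SE, adjusted p = 0.219) in liver and -0.60 ± 0.15 (SE, adjusted p = 0.0241) in pancreas. Canx and Pdia3 passed the test in pancreas and not in liver, but liver and pancreas themselves gave adjusted p = 0.924 for Canx and 0.734 for Pdia3. Mlec, which binds glucosylated glycans, differed by -0.83 ± 0.14 (SE, adjusted p = 0.00191) in liver and -1.34 ± 0.14 (SE, adjusted p = 2.79e-05) in pancreas.

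Of 10 genes for the oligosaccharyltransferase, which attaches glycans to proteins as they enter the ER, 6 were lower in liver and 6 in pancreas, and 0 were higher (0 at an unadjusted p under 0.05 and 0 by DESeq2). Leaving out 1 library gave 5 to 10 in liver, with 10 without duodenum 2, and 5 to 9 in pancreas. Stt3b, a catalytic subunit, was at 19.4, 21.9, 18.4 and 18.9 TPM in liver, 17.8, 16.5, 15.6 and 9.39 TPM in pancreas, and 109.6, 72.2, 124 and 136 TPM in duodenum libraries. All duodenum libraries of Stt3b were above all others, with differences of -2.67 ± 0.23 (SE, adjusted p = 8.11e-06) in liver and -2.99 ± 0.24 (SE, adjusted p = 1.78e-06) in pancreas. Rpn1, a further subunit, differed by -0.93 ± 0.18 (SE, adjusted p = 0.00554) in liver and -1.22 ± 0.18 (SE, adjusted p = 0.000657) in pancreas. Of 20 genes for the translocon and signal processing, 8 were lower and 1 higher in liver, and 10 were lower in pancreas. These counts rest on single libraries: the called genes in liver numbered 1 without duodenum 1, 2 without duodenum 4, 4 without duodenum 3 or liver 2, 5 without liver 1 and 15 without duodenum 2. In pancreas they numbered 4 to 14, with 4 without duodenum 1 or 4 and 5 without duodenum 3 or pancreas 1 or 2. Spcs3, a signal peptidase subunit, differed by -0.68 ± 0.17 (SE, adjusted p = 0.0238) in liver and -0.81 ± 0.17 (SE, adjusted p = 0.00772) in pancreas. Serp1, which stabilises membrane proteins at the translocon, was the gene higher in liver, at 0.48 ± 0.13 (SE, adjusted p = 0.0392), and is named after its values were seen. Sec61b, a subunit of the channel itself, differed by -0.44 ± 0.13 (SE, adjusted p = 0.0588) in liver and -0.42 ± 0.13 (SE, adjusted p = 0.0667) in pancreas, which did not pass the test.

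Further isomerase, ERAD and sensor genes were counted in the same way. Pdia5, of the disulfide isomerase family, ran against the members of that family, at 83.3, 66.8, 58.1 and 64.1 TPM in liver, 35.8, 31.8, 38.7 and 48.2 TPM in pancreas, and 15.3, 14.2, 17.6 and 18.9 TPM in duodenum libraries. The libraries of the 3 tissues did not overlap, and Pdia5 was higher than in duodenum by 1.87 ± 0.17 (SE, adjusted p = 1.46e-05) in liver and 1.15 ± 0.17 (SE, adjusted p = 0.00062) in pancreas. It was the 1 gene higher of 11 in its list, and Erp29 was the 1 lower in each tissue, at -0.55 ± 0.12 (SE, adjusted p = 0.00899) in liver and -0.83 ± 0.12 (SE, adjusted p = 0.000386) in pancreas. Lower genes made up 9.09% of this list in each comparison, near the 9.29% and 9.13% of all genes given above. Without duodenum 2 the called genes of this list numbered 7 in liver and 6 in pancreas. Of 19 further ERAD genes, 3 were lower in liver and 7 in pancreas, among them Rnf5 and Ube2g2. Without duodenum 2 there were 8 in liver, and without duodenum 3 or 4 there were 4 in pancreas, so no order of the tissues is read from these counts. Rnf5, a ubiquitin ligase, differed by -0.74 ± 0.12 (SE, adjusted p = 0.00183) in liver and -0.60 ± 0.12 (SE, adjusted p = 0.00745) in pancreas. Ube2g2, a ubiquitin-conjugating enzyme, differed by -0.65 ± 0.17 (SE, adjusted p = 0.0294) in liver and -0.94 ± 0.17 (SE, adjusted p = 0.00269) in pancreas. Of 16 other sensors and cofactors, Atf6b, the relative of ATF6, was lower in both tissues, at -0.63 ± 0.17 (SE, adjusted p = 0.0359) in liver and -0.76 ± 0.17 (SE, adjusted p = 0.0117) in pancreas. Rtcb, the ligase that joins the Xbp1 exons after IRE1 has cut, was lower in pancreas, at -0.56 ± 0.12 (SE, adjusted p = 0.00921). Eif2ak2, the interferon-induced kinase PKR, was higher in liver, at 0.67 ± 0.18 (SE, adjusted p = 0.0317). Lower genes made up 6.25% of this list in liver and 12.5% in pancreas, beside the same shares of all genes. The called genes of this list numbered 0 to 6 in liver when 1 library was left out (0 without liver 1, 2 or 4 or duodenum 1 or 4, 1 without liver 3, duodenum 3 or any pancreas library, and 6 without duodenum 2). In pancreas they numbered 2 to 4, with 4 without duodenum 2 or pancreas 3.

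Of 9 transcripts that IRE1 can cleave, Bloc1s1, the best known of them, was the 1 called. It was at 153, 157, 163 and 172 TPM in liver, 145, 163, 165 and 149 TPM in pancreas, and 215, 213, 222 and 227 TPM in duodenum libraries. Its duodenum libraries were the highest, and it differed by -0.61 ± 0.13 (SE, adjusted p = 0.00886) in liver and -0.56 ± 0.13 (SE, adjusted p = 0.0128) in pancreas. Lower genes thus made up 11.1% of the list in each comparison. Of all genes with a mean of at least 1 TPM, 9.29% were lower in liver and 9.13% in pancreas. Scara3, Pdgfrb and Col6a1 of this list had means below 1 TPM in every tissue.

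Other targets of ATF4 serve amino acid supply and the stress response. Of 21 such genes, 11 were lower and 0 higher in liver than in duodenum (0 higher at an unadjusted p under 0.05 and 0 by DESeq2), whereas 6 were lower and 3 higher in pancreas. Lower genes thus made up 52.4% of the list in liver and 28.6% in pancreas. Of all genes with a mean of at least 1 TPM, 9.29% were lower in liver and 9.13% in pancreas. Of all genes tested, 3.37% were higher in liver and 3.76% in pancreas. Without duodenum 1 or 3, the called genes in pancreas numbered 5. Phgdh encodes the entry enzyme of serine synthesis. It was at 10.9, 8.39, 10.9 and 5.23 TPM in liver, 28.99, 28.5, 21.6 and 17.9 TPM in pancreas, and 40.1, 36.3, 45.2 and 46.9 TPM in duodenum libraries. Its 3 tissues formed separate ranges, lowest in liver, and it differed from duodenum by -2.41 ± 0.24 (SE, adjusted p = 2.64e-05) in liver and -0.88 ± 0.23 (SE, adjusted p = 0.0295) in pancreas. In liver against pancreas, 3 genes were lower, or 14.3%, where 1.11% of all genes tested were called in either direction. Phgdh differed by -1.53 ± 0.23 (SE, adjusted p = 0.00378), Psat1 of the same pathway by -1.05 ± 0.17 (SE, adjusted p = 0.00588), and Nupr1 by -4.88 ± 0.40 (SE, adjusted p = 1.01e-05).

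Atf3 is an ATF4 target and also an immediate-early gene. It was at 3.47, 5.69, 4.39 and 5.81 TPM in liver, 4.67, 8.53, 6.3 and 19.1 TPM in pancreas, and 37.6, 24.6, 20.1 and 16.4 TPM in duodenum libraries. Pancreas 4 lay within the duodenum range, and Atf3 differed by -2.51 ± 0.40 (SE, adjusted p = 0.00114) in liver and -1.42 ± 0.38 (SE, adjusted p = 0.0338) in pancreas. Asns, for asparagine synthesis, was at 1.55, 1.21, 1.27 and 0.117 TPM in liver, 8.87, 2.18, 3.86 and 3.6 TPM in pancreas, and 5.96, 4.04, 2.28 and 8.01 TPM in duodenum libraries. All liver libraries lay below the duodenum range and the pancreas libraries overlapped with it. Asns differed by -2.46 ± 0.62 (SE, adjusted p = 0.0264) in liver and -0.26 ± 0.59 (SE, adjusted p = 0.893) in pancreas. The 3 genes higher in pancreas than in duodenum were Nupr1, Ddit4 and Cebpg. Nupr1, a stress-induced regulator of transcription, differed by 4.39 ± 0.39 (SE, adjusted p = 5.76e-06). Ddit4, an inhibitor of the growth kinase mTORC1, differed by 2.57 ± 0.67 (SE, adjusted p = 0.029). Cebpg, of the C/EBP family, differed by 0.84 ± 0.22 (SE, adjusted p = 0.029), and is named after its values were seen. Nupr1 was at 124, 31.7, 58.1 and 46.6 TPM in pancreas libraries beside acinar sums of 5997, 1016, 2832 and 3016 TPM, and the part of acinar RNA in its level was not tested.

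**Figure D5:**
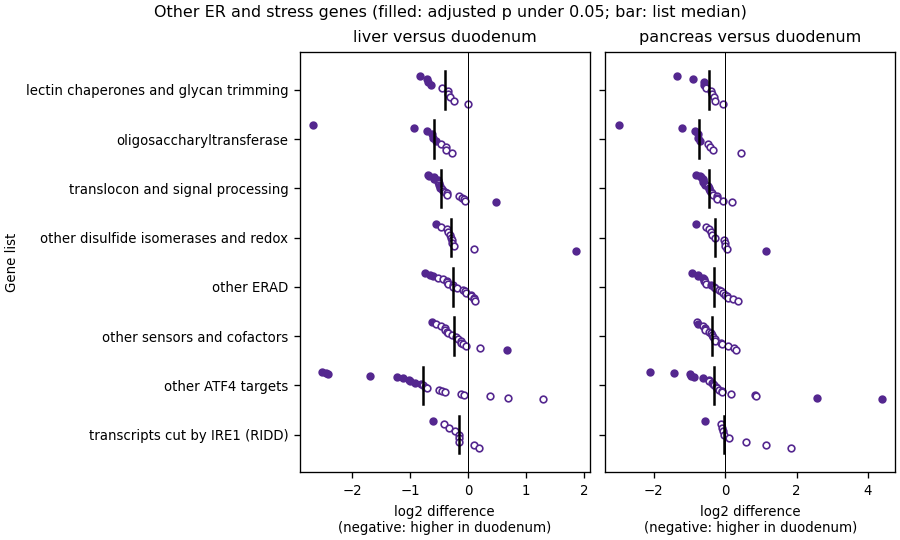
Log2 difference of each gene in 8 further lists of ER and stress genes, for liver versus duodenum (left) and pancreas versus duodenum (right). Filled points passed an adjusted p under 0.05 and black bars are list medians. The medians lie below 0 in each list, at -0.58 and -0.74 for the oligosaccharyltransferase and at -0.16 and -0.03 for transcripts cut by IRE1, with Stt3b at the far left, Pdia5 at the far right in liver, and Nupr1 at the far right in pancreas.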

How the data were processed

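Bulk RNA-seq of 12 polyA libraries (4 per tissue) was analysed from the values per gene that the authors deposited. Per the submitters' processing notes, kallisto and build GRCm39 were used, with no version of kallisto given in the sources used here. After rounding, the estimated counts that the authors deposited entered edgeR 4.0.16 (R 4.3.3; filterByExpr with a minimum count of 10, TMM factors, robust quasi-likelihood F test, Benjamini-Hochberg adjustment over 44624 genes), with all 12 libraries in 1 fit and no replicate block. The deposited estimated counts may have been rebuilt from TPM by the authors, which the values do not settle. The deposited TPM are printed as levels and were tested with limma 3.58.1 as an alternative; DESeq2 1.42.0 was another. Library totals were 220.9 to 356.1, in units of 1000000 counts. The fitting code was tested on simulated data. The members and lists were chosen with earlier results of these data known. TPM in every library is given for members called in any comparison and for the sensors and factors; from each further list, at most 4 called genes per comparison with the largest difference are named, with Calr, Canx, Pdia3, Sec61b, Asns and Atf3 named in any case. Promoters come from RefSeq (GRCm38.p6), which is not the build of the values, and no other coordinates are given.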

Additional observations from a re-analysis of the deposited data

Results flagged for a closer look

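For 6 of 96 gene and tissue groups of 4 libraries, 1 library stood apart from the other 3 by Dixon's criterion, and chance gives about 1 in 20 such groups. Dnajb11 was at 106 TPM in liver 2, against 91.5 to 92.6 TPM in the other liver libraries. Trib3 was at 1.45 TPM in liver 4, against 0.419 to 0.544 TPM. Herpud1 was at 263 TPM in liver 4, against 349 to 361 TPM. Chac1 was at 1.38 TPM in pancreas 3, against 0.715 to 0.826 TPM in the other pancreas libraries, and Pdia6 at 121 TPM in pancreas 4, against 106 to 108 TPM. Pdia4 was at 83.9 TPM in duodenum 2, against 112 to 116 TPM in the other duodenum libraries.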

How the results depend on the processing

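Against duodenum, the count of lower members stayed within 1.5 times the main count under all alternatives run, and no called member changed sign. Leaving out 1 library at a time gave 14 to 25 genes in liver and 20 to 27 in pancreas, and 13 of 20 and 19 of 22 called genes were called in each of these 12 fits. Counts of most further lists moved by over 1.5 times when 1 library was left out, and the libraries are named with those lists. The titles do not say whether a replicate number marks shared mice or days. Deviations of same-numbered libraries correlated at -0.052 to 0.104, and those of differently numbered libraries at -0.163 to 0.113. These correlations do not settle whether mice or days were shared. With a replicate block, 16 genes were lower in liver, 21 in pancreas, and 0 were called between liver and pancreas. Between liver and pancreas, where 0 members were called, the count was 7 with library totals only, 1 by DESeq2, 2 by limma on log2(TPM + 1), 2 on log2(TPM + 0.1), 7 by limma over genes of at least 1 TPM in 4 libraries, 1 with only the 8 libraries compared, and 0 to 2 leaving out 1 library. Leaving out duodenum 2 and pancreas 1, chosen after seeing the data, gave 2, with 25 genes lower in liver and 25 in pancreas against duodenum. The causes were not tested. Over all genes, the count in liver against duodenum was 3265 in the fit reported and 5133 by DESeq2, and without liver 2, pancreas 3 and pancreas 4 it was 2069. The scaling moved its split, with 1502 genes higher and 1763 lower with TMM, 1078 and 1976 with DESeq2 size factors, and 2642 and 1520 with library totals, where the median of all genes was 0.25 (log2) instead of 0.10. Each of the 20 and 22 called members kept a negative difference under each scaling. Calls held in all 23 alternatives for 12 of the 20 in liver and 19 of the 22 in pancreas.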
